A study of Mus musculus with 9 samples.

Results

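The 10 genes described here code for receptors of immunoglobulin G and C-type lectin receptors of myeloid cells: Fcgr1, Fcgr2b, Fcgr3, Fcgr4, Fcer1g, Clec4d, Clec4e, Clec5a, Clec4n and Clec4a2. They were chosen by name, as the probe sets that carry that single gene symbol, and all 10 were measured, by 1 probe set each, among 19938 genes. RNA of brain tissue had been hybridised to 9 Affymetrix arrays of the type Mouse Gene 1.0 ST, with 3 for each group. The control group was C57/6J wild-type mice given saline through the nose. The model group was APP/PS1 mice, whose transgenes code for presenilin and the precursor of amyloid-β, and which form amyloid plaques, given saline in the same way. The HPYD group was APP/PS1 mice given HPYD, a designed peptide meant to break the β-sheets of amyloid-β, at 33 mg/mL. The volume was 5 μL per day for 30 days, and the APP/PS1 mice were 8 months old when bought, with control mice of matched age. The APP/PS1 line, the promoters of its transgenes and the sex of the mice were not found in the sources used. As no source ties each array to a mouse of its own, p-values cover the spread between these samples alone, and that may be technical. Values are log2 signals, and a difference of 1 between arrays is a doubling of signal. Signals of different probe sets were not compared with each other.

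Fcγ receptors bind the constant part of immunoglobulin G on phagocytes. Fcgr1 codes for the high-affinity receptor, Fcgr3 and Fcgr4 for lower-affinity activating receptors, and Fcgr2b for the inhibitory receptor. The activating receptors need Fcer1g, the Fc receptor γ chain, whose ITAM motif recruits the kinase Syk when phosphorylated. Clec4d, Clec4e (Mincle) and Clec4n (Dectin-2) are C-type lectin receptors for microbial glycolipids and mannans that also signal through Fcer1g, Clec5a signals through the DAP12 adaptor encoded by Tyrobp, and Clec4a2 (DCIR) carries an inhibitory motif. In brain these genes are known from microglia, and several of them are abundant in neutrophils and monocytes.

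The array labelled HPYD 3 stood apart from its group. Prnp, the prion protein gene, was 11.52 in it, 12.54 and 12.47 in HPYD 1 and 2, 12.42 to 12.55 in the model arrays and 11.76 to 11.81 in the control arrays. Xist, the RNA that coats the silenced X chromosome in females, was 5.22 in the array labelled HPYD 3 and 5.20 to 5.69 in the control arrays, against 11.18 to 11.78 in the other 5 arrays. That array thus went against its label, and each result of the HPYD group is given with and without it. The same values split the control arrays from the model arrays, so genotype and sex cannot be told apart in these groups. S100a8, a neutrophil calgranulin taken here as the sign of granulocyte RNA, was 9.91 in Model 1, 10.53 in Model 2 and 9.23 in HPYD 2, and 5.36 to 6.63 in the other 6 arrays. In whole tissue, fewer cells of a type and less RNA per cell cannot be told apart.

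The DNA before the start sites is shown so that members with a shared array pattern can be read beside it. RefSeq promoter windows of GRCm38.p6 were found for 9 of the 10 genes, with 2 overlapping ones for Fcgr3 and none for Clec4n, and the 250 bases before each start were searched on both strands. GAGGAA, the core letters bound by the myeloid factor PU.1, was in the windows of 6 genes (Fcgr1, Fcgr3, Fcgr4, Clec4d, Clec4e and Clec5a) and in 23.3% of all 32851 windows. The longer GAGGAAGT, which contains it, was in that of Fcgr4 and in 2.44% of all. TTNNGNAA, letters of C/EBP sites, was in those of Clec4a2, Clec4d, Clec4e, Clec5a, Fcgr3 and Fcgr4, and in 36.8% of all. A match is a run of letters and not a measured site. Each sequence below runs 5′ to 3′ on the strand of its gene, with GAGGAA or its reverse complement TTCCTC in capitals. Fcer1g (chr1:171234350-171234599, minus strand) is shown for the Fc receptor genes that were high in all model arrays. Among these, Fcgr1, Fcgr3 and Fcgr4 had a match, while Fcgr2b and Fcer1g had none:
Fcer1g: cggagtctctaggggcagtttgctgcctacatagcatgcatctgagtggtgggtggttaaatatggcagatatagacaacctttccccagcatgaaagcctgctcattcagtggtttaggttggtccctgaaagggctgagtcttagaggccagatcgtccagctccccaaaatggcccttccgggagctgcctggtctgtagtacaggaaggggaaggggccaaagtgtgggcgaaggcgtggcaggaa
Fcgr4 (chr1:171018676-171018925, plus strand) was the member with the smallest p between the model and control groups:
Fcgr4: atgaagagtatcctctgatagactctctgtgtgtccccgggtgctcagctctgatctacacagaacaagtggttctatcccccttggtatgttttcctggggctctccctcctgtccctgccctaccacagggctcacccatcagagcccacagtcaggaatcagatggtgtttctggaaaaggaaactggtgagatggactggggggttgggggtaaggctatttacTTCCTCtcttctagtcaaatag
Clec5a (chr6:40585806-40586055, minus strand) followed Fcgr4 in that order:
Clec5a: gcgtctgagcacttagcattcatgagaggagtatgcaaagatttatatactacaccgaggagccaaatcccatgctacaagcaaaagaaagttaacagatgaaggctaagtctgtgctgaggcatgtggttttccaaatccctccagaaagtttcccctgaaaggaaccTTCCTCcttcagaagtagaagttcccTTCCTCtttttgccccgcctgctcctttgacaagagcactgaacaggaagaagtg
Clec4e (chr6:123289872-123290121, minus strand) is shown for the Clec4 genes that were high in the arrays with high S100a8:
Clec4e: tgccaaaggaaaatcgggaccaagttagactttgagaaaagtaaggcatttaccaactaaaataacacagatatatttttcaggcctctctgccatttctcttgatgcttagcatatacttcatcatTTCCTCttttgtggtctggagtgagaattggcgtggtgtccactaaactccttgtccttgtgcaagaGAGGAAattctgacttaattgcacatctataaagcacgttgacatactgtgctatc

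Fcer1g, the shared signalling chain, had its higher level in all model arrays and in HPYD 1 and 2. It was 9.05, 9.28 and 9.34 in Control 1 to 3, 10.24, 9.9998 and 9.88 in Model 1 to 3, and 10.01, 10.17 and 8.76 in HPYD 1 to 3. All model arrays lay above all control arrays, and the array labelled HPYD 3 lay below all others. The model group (10.04 ± 0.18, SD, n = 3) was above the control group (9.22 ± 0.15) by 0.82 (standard error 0.33), or 1.77-fold, with an adjusted p of 0.859 from limma over all genes. Without the array labelled HPYD 3 the difference was the same by construction, with a standard error of 0.12 and an adjusted p of 0.192 (limma).

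Fcgr1, Fcgr3 and Fcgr2b showed the same division of the arrays. Fcgr1, the high-affinity receptor, was 6.57, 6.62 and 6.51 in Control 1 to 3, 7.12, 6.89 and 7.32 in Model 1 to 3, and 7.21, 7.24 and 6.55 in HPYD 1 to 3. The array labelled HPYD 3 lay within the control range here, and the model arrays, HPYD 1 and HPYD 2 lay above it. Fcgr3 was 8.26, 8.01 and 8.37 in the control arrays, 8.81, 8.48 and 8.88 in the model arrays, and 8.74, 8.87 and 7.19 in the HPYD arrays. Fcgr2b, the inhibitory receptor, was 7.39, 7.51 and 7.50, then 8.28, 7.77 and 8.07, and 8.15, 8.26 and 7.20 in HPYD 1 to 3. For both, the array labelled HPYD 3 lay below all control arrays, and Model 2 was the lowest model array. The differences between model and control groups were 0.54 (standard error 0.19) for Fcgr1, 0.58 (0.26) for Fcgr2b and 0.51 (0.40) for Fcgr3, and limma's adjusted p was 0.859 for all of them. The inhibitory Fcgr2b lay on the same side as the activating receptors, and a difference between them was not tested.

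**Figure D1:**
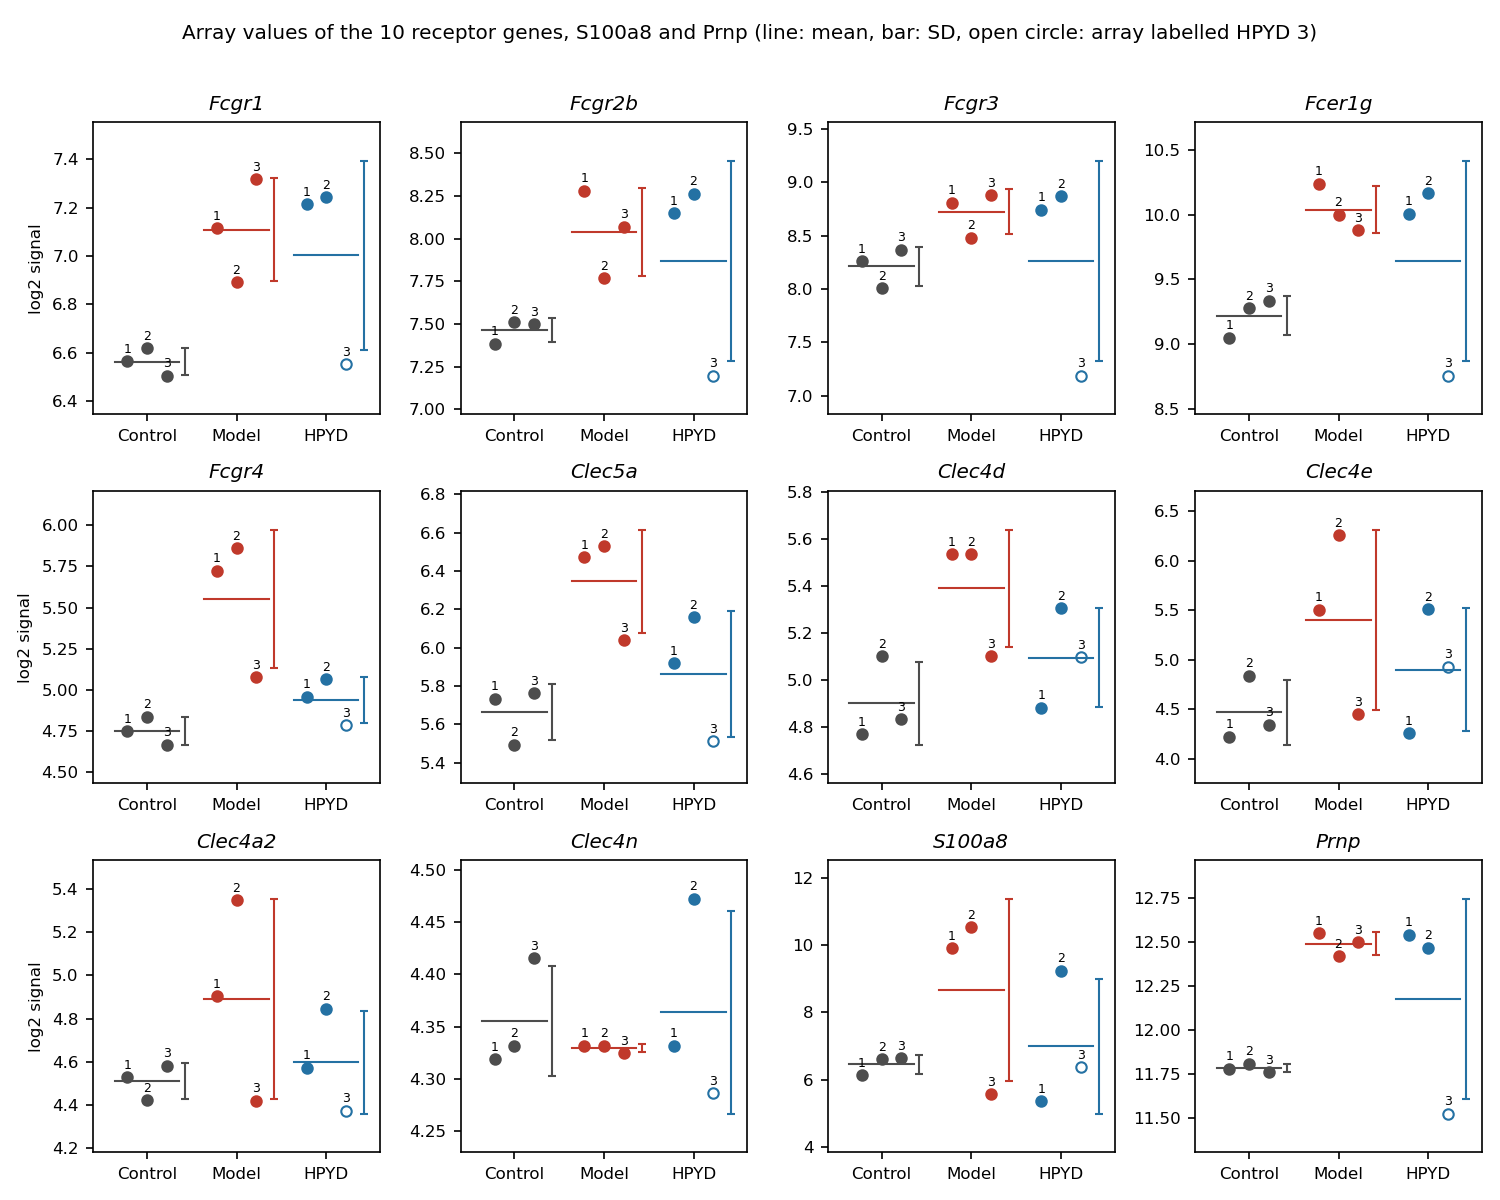
Log2 signal (vertical axes) of the 10 receptor genes, S100a8 and Prnp in each array, numbered by replicate, with the group mean (line) and SD (bar) over 3 arrays. Fcgr1, Fcgr2b, Fcgr3 and Fcer1g were high in all model arrays and in HPYD 1 and 2, with Fcer1g at 8.76 in the array labelled HPYD 3 (open circle), while Clec4d, Clec4e and Clec4a2 were highest in Model 1, Model 2 and HPYD 2.

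Fcgr4, an activating receptor of mice that is known from monocytes, neutrophils and macrophages, followed another order. It was 4.75, 4.84 and 4.67 in the control arrays, 5.72, 5.86 and 5.08 in the model arrays, and 4.96, 5.06 and 4.79 in HPYD 1 to 3. Model 1 and Model 2 stood out, and Model 3 lay just above HPYD 2, with 5.0765 against 5.0646. Like Clec5a, Fcgr4 lay in the dimmest 33.3% of genes, where signal over background limits the reading. The model group was above the control group by 0.80 (standard error 0.19), or 1.74-fold (limma adjusted p = 0.859). The HPYD group was below the model group by a log2 difference of -0.62 (95% interval -1.05 to -0.19, limma adjusted p = 1), and without the array labelled HPYD 3 by -0.54 (-1.05 to -0.037). With the S100a8 level as a covariate the difference was -0.43 (-0.71 to -0.14), and -0.39 (-0.71 to -0.070) when HPYD 3 was also left out. With Model 1, Model 2 and HPYD 2, the arrays with high S100a8, left out, it was -0.20. That fit set a single model array, Model 3 (5.08), against HPYD 1 (4.96) and the array labelled HPYD 3 (4.79). Every HPYD array lay below every model array (p = 0.1 in an exact permutation test, two-sided, which is the lowest possible p for 3 arrays in each group), which held for 1 of the 10 members and for 0.983% of all genes.

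Clec5a, the DAP12-coupled lectin receptor, was 5.73, 5.49 and 5.76 in the control arrays, 6.47, 6.53 and 6.04 in the model arrays, and 5.92, 6.16 and 5.51 in HPYD 1 to 3. The model arrays lay above all control arrays, and HPYD 2 lay above Model 3. The model group was above the control group by 0.68 (standard error 0.19; limma adjusted p = 0.859). Between the HPYD and model groups the difference was -0.48 (95% interval -0.91 to -0.053; limma adjusted p = 1). Without the array labelled HPYD 3 it was -0.31 (-0.70 to 0.087). With the S100a8 covariate it was -0.32 (-0.68 to 0.039), and -0.19 (-0.45 to 0.070) when HPYD 3 was also left out. With Model 1, Model 2 and HPYD 2 left out it was -0.32. That fit set a single model array, Model 3 (6.04), against HPYD 1 (5.92) and the array labelled HPYD 3 (5.51). Clec4d, Clec5a and Fcgr4 were among the genes that the study itself selected from these arrays, so their direction here is not independent evidence. The paper also reports RT-qPCR of these genes, in good concordance with its arrays, and those measurements were not used here.

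Clec4d, Clec4e and Clec4a2 were highest in Model 1, Model 2 and HPYD 2, the arrays with high S100a8. Clec4e, the receptor Mincle, was 4.22, 4.84 and 4.34 in the control arrays, 5.51, 6.26 and 4.45 in the model arrays, and 4.26, 5.51 and 4.93 in HPYD 1 to 3. Model 3 and HPYD 1 lay within the control range, and the model group (5.41 ± 0.91, SD, n = 3) had a spread nearly as wide as its distance of 0.94 (standard error 0.47) from the control group (4.47 ± 0.33; limma adjusted p = 0.859). Clec4d was 4.77, 5.10 and 4.83 in the control arrays, 5.53, 5.53 and 5.10 in the model arrays, and 4.88, 5.30 and 5.10 in HPYD 1 to 3. Control 2 and Model 3 held exactly the same deposited value, 5.10122, so the groups met without a gap. Clec4a2, the inhibitory receptor DCIR, was 4.53, 4.42 and 4.58, then 4.90, 5.35 and 4.42, and 4.57, 4.85 and 4.37 in HPYD 1 to 3. Here Model 3 lay just below the lowest control array. The differences between model and control groups were 0.49 (standard error 0.16) for Clec4d and 0.38 (0.22) for Clec4a2, both with an adjusted p of 0.859 (limma).

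Clec4n, which codes for Dectin-2, showed no such pattern. It was 4.32, 4.33 and 4.42 in the control arrays, 4.33, 4.33 and 4.32 in the model arrays, and 4.33, 4.47 and 4.29 in HPYD 1 to 3. Control 2, Model 1, Model 2 and HPYD 1 held the identical value 4.33178. Values repeated in at least 4 arrays occurred in 11.2% of all genes, and in at least 2 arrays, as for Clec4d and Clec4n, in 48.5%. The 95% interval of the difference between model and control groups was -0.17 to 0.12. In the RefSeq annotation of GRCm38.p6, Clec4n, Clec4d and Clec4e follow one another directly on chromosome 6, and 1 protein-coding gene lies between Clec4a2 and Clec4n. All of these Clec4 genes lay in the dimmest 33.3% of genes, where signal over background limits the reading. A difference in array pattern between Clec4n and its neighbours was not tested. Fcgr2b, Fcgr4 and Fcgr3 lie on chromosome 1 with 0 protein-coding genes between them, and Fcer1g follows after 7.

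Over the 10 members, 9 were higher and 1 was lower in the model group relative to controls, with a median difference of 0.56. Over all 19938 genes, 8981 were higher and the median was -0.01. After the Benjamini-Hochberg adjustment, limma called 0 members and 0 genes in all in each of the 3 comparisons (0% each). With the array labelled HPYD 3 left out, it called 7 genes between model and control groups (0.0351%), 0 between HPYD and model groups (0%) and 8 between HPYD and control groups (0.0401%), and again 0 members. The 7 were Uty, Xist, Eif2s3y, Kdm5d, Ccl6, Nnt and Prnp, and the 8 were these with Tyrobp. That array had been set apart by its Xist and Prnp values, so the calls of these genes are not independent evidence. At an unadjusted p under 0.05, 5 members (Fcgr1, Fcgr4, Fcer1g, Clec4d and Clec5a) were higher in the model group, against 2.87% of all genes. Without the array labelled HPYD 3, 7 members were, with Fcgr2b and Fcgr3 added, against 3.05% of all genes. All 3 model arrays exceeded all 3 control arrays for 6 members (Fcgr1, Fcgr2b, Fcgr3, Fcgr4, Fcer1g and Clec5a), and for 4.83% of all genes. In the same 6 members, the model arrays with HPYD 1 and 2 lay above all control arrays and the array labelled HPYD 3, which held for 0.928% of all genes. This is also the division of the arrays by Xist, and its part in the result was not tested.

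The comparison of the HPYD and model groups uses the same model arrays. Its median difference over the members was -0.35, beside 0.02 over all genes, and -0.07 without the array labelled HPYD 3. At an unadjusted p under 0.05, Fcgr4 and Clec5a were lower in the HPYD group, or 2 members, against 0.752% of all genes. Without the array labelled HPYD 3 this was 1 member, Fcgr4, against 0.637% of all genes. For Fcer1g, Fcgr1, Fcgr2b and Fcgr3, the sign of the difference rested on that array. Fcer1g differed by -0.40 with it and by 0.05 (95% interval -0.26 to 0.36) without it, Fcgr1 by -0.10 and 0.12 (-0.16 to 0.40), Fcgr2b by -0.17 and 0.17 (-0.17 to 0.50), and Fcgr3 by -0.46 and 0.08 (-0.27 to 0.43). Clec4d (-0.30), Clec4e (-0.51 and -0.52) and Clec4a2 (-0.29 and -0.18) kept their sign, and their intervals included 0.

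Between the HPYD and control groups all 10 members had a higher mean in the HPYD group, as had 10818 of all 19938 genes. The smallest member differences were 0.0083 for Clec4n and 0.055 for Fcgr3. The member median was 0.20 (0.40 without the array labelled HPYD 3), beside 0.01 over all genes. At an unadjusted p under 0.05, 1 member was higher, Fcgr1 (0.44, standard error 0.19, limma adjusted p = 0.860), against 2% of all genes. Without the array labelled HPYD 3, 4 members were (Fcgr1, Fcgr2b, Fcgr3 and Fcer1g), against 1.53% of all genes. Their differences were then 0.66, 0.74, 0.59 and 0.87, and the smallest adjusted p was 0.307, for Fcer1g (limma). HPYD 1 and 2 lay above every control array for 6 members, and for 7.32% of all genes.

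**Figure D2:**
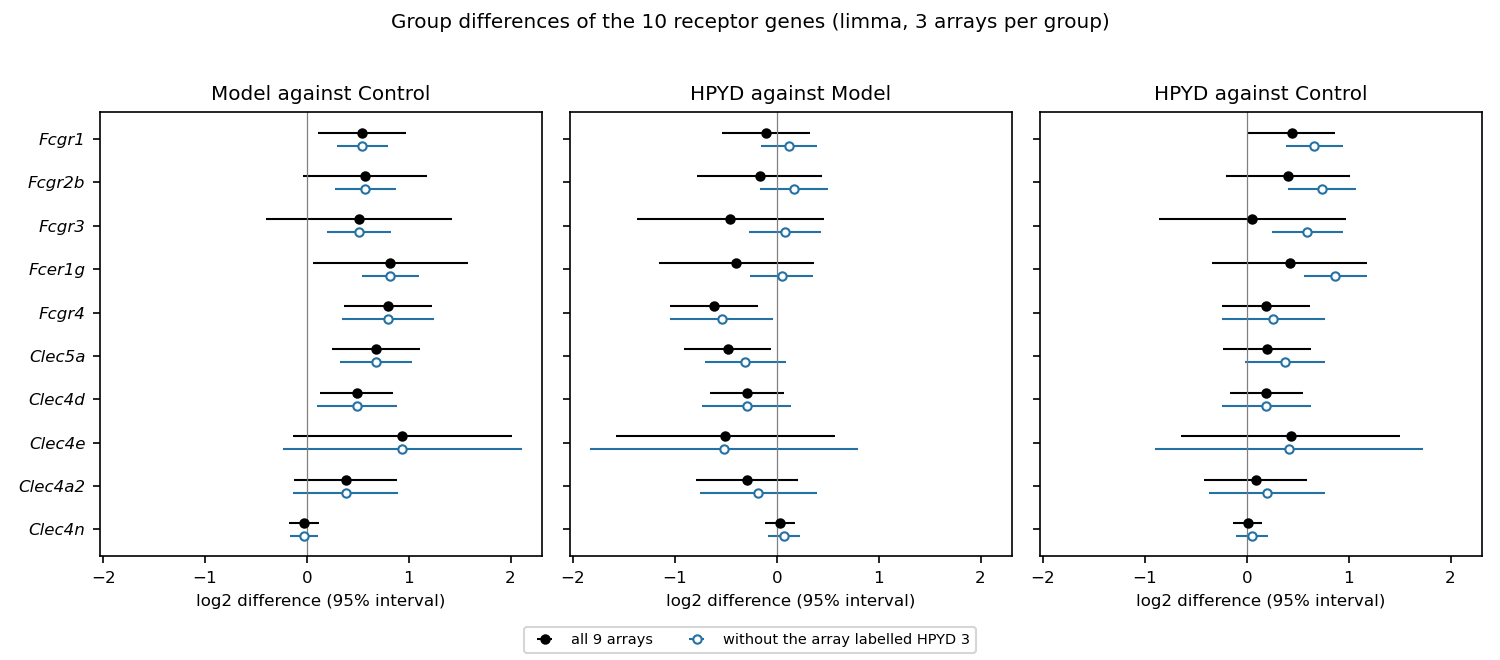
Log2 differences between groups (horizontal axes, points) with 95% intervals from limma for the 10 receptor genes, over all 9 arrays (black) and without the array labelled HPYD 3 (blue, open). Leaving that array out narrowed the interval of Fcer1g between model and control groups, around 0.82, and moved its difference between HPYD and model groups from -0.40 to 0.05, while Fcgr4 stayed below 0 in the latter comparison (-0.62 and -0.54).

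Set against S100a8, the members showed several patterns. Model 3 had an S100a8 level of 5.57 and HPYD 1 one of 5.36, both below every control array. In these arrays Fcer1g was 0.66 and 0.79 above the control mean, Fcgr1 0.75 and 0.65, Fcgr2b 0.60 and 0.69, and Fcgr3 0.67 and 0.53. Fcgr4 was 0.32 and 0.21 above it and Clec5a 0.37 and 0.25. By contrast, Clec4e was -0.02 and -0.21 from the control mean and Clec4a2 -0.09 and 0.06. Clec4d was 0.20 and -0.02 from it, with Control 2 also at 0.20. Model 1, Model 2 and HPYD 2 were the 3 highest arrays for 4 members, Clec4d, Clec4e, Clec5a and Clec4a2, and for 3.81% of all genes. These differences from the control mean are a description of single arrays without a test.

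With the S100a8 level of each array as a covariate and the array labelled HPYD 3 left out, a fit added after the data had been seen, the differences between model and control groups were 0.71 for Fcer1g, 0.64 for Fcgr1, 0.58 for Fcgr2b and 0.57 for Fcgr3. They were 0.56 for Fcgr4 and 0.49 for Clec5a, against 0.80 and 0.68 without the covariate. For Clec4d the value was 0.27, for Clec4e 0.22 and for Clec4a2 0.10. Without the covariate these were 0.49, 0.94 and 0.38, those of Fcer1g, Fcgr1, Fcgr2b and Fcgr3 were 0.82, 0.54, 0.58 and 0.51, and whether the covariate moved the genes unequally was not tested. With Model 1, Model 2 and HPYD 2 left out, Model 3 was the single model array and was assumed to vary like the others. Fcgr1 was then higher by 0.75 (95% interval 0.097 to 1.41) and Fcgr4 by 0.32 (0.037 to 0.61). The intervals of Fcer1g (0.66, -0.57 to 1.89), Fcgr2b (0.60, -0.32 to 1.53), Fcgr3 (0.67, -0.85 to 2.19) and Clec5a (0.37, -0.13 to 0.88) included 0, Clec4d differed by 0.20 (-0.23 to 0.63), and Clec4e and Clec4a2 differed by -0.02 and -0.09.

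**Figure D3:**
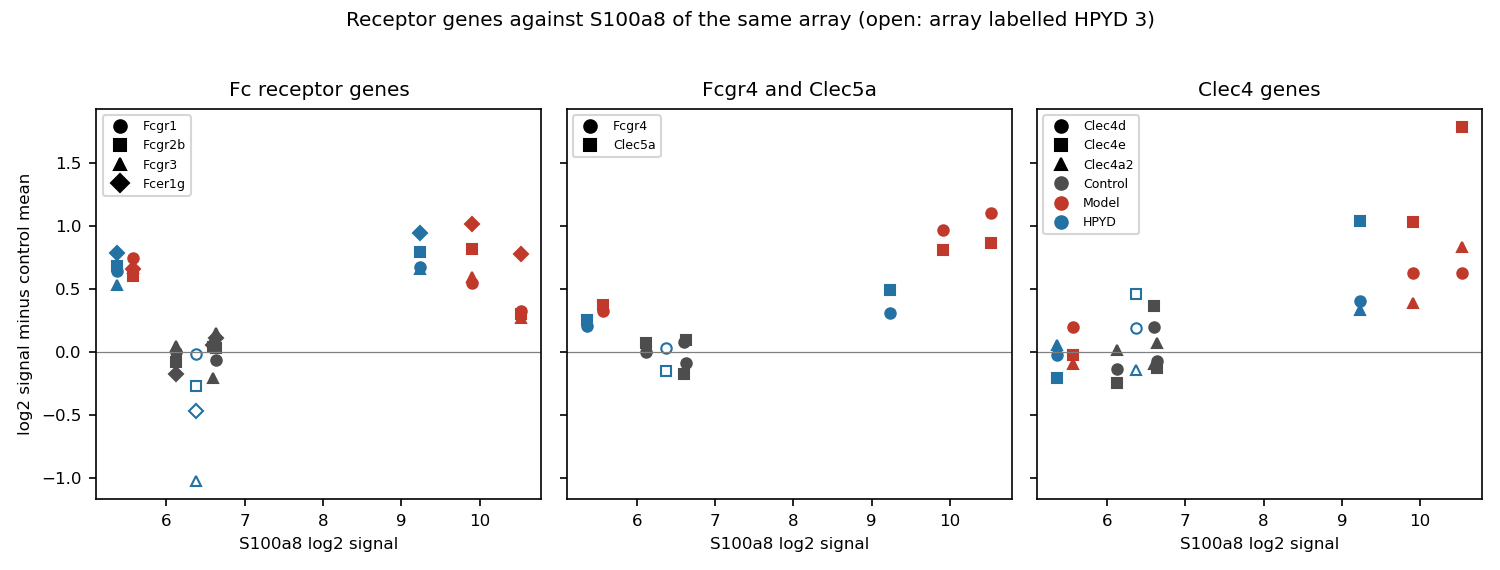
Log2 signal of each receptor gene minus its control mean (vertical axis) against the S100a8 log2 signal of the same array (horizontal axis), in 3 panels by array pattern, with colours for groups and open symbols for the array labelled HPYD 3. At S100a8 levels of 5.57 and 5.36, Model 3 and HPYD 1 had Fcer1g 0.66 and 0.79 above the control mean, whereas Clec4e was -0.02 and -0.21 from it.

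Markers of other cells varied over the same arrays. The list of granulocyte and precursor genes had 19 of 20 measured, all 19 higher on average in the model arrays (median 1.63), and its mean log2 level was 6.27 to 6.44 in control arrays, 9.01, 9.38 and 5.71 in Model 1 to 3, and 5.78, 8.48 and 6.29 in HPYD 1 to 3. Within it, Ms4a3, a gene of granulocyte precursors, differed by 1.35 and Csf3r, the G-CSF receptor gene, by 0.89. The 8 measured of 10 monocyte genes had a mean level of 5.83 to 5.90 in control arrays and of 6.55, 7.12 and 5.86 in Model 1 to 3, and Plac8, one of them, differed by 1.16. Skeletal muscle genes, foreign to brain, had a mean level of 6.03 to 6.13 in control arrays, 8.62, 10.19 and 6.16 in Model 1 to 3, and 6.06, 7.10 and 6.11 in HPYD 1 to 3, with Myot, a sarcomere gene, at 10.27 in Model 2. Genes of neurons, astrocytes and oligodendrocytes, the labelled tissue, had a mean of 11.52 to 11.77 over all 9 arrays and a median difference of -0.048, and at an unadjusted p under 0.05 the model group was higher for 2 of 9 measured. These were Gfap, the astrocyte filament gene, with a difference of 0.89, and Mbp, a myelin gene, with 0.19 (limma adjusted p = 0.859 for both).

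Genes of plaque-associated microglia, 14 of 15 measured, were all higher in the model group (median 0.80, 10 at an unadjusted p under 0.05 and 0 at an adjusted one, limma). With the array labelled HPYD 3 left out, 12 had an unadjusted p under 0.05 and 1, the chemokine gene Ccl6, passed the adjusted test. Ccl6 then differed by 1.65 between model and control groups (limma adjusted p = 0.00963) and by 1.57 between HPYD and control groups (limma adjusted p = 0.0232). With that array kept, the latter difference was 0.93 (limma adjusted p = 0.860). The mean level of the list was 7.70 to 7.89 in control arrays, 8.90, 8.56 and 8.88 in Model 1 to 3, 8.88 and 8.84 in HPYD 1 and 2, and 7.69 in the array labelled HPYD 3. Fcer1g and Fcgr1 divided the arrays in the same way and Clec4e did not. Homeostatic microglial genes, 9 of 10 measured, had a median difference of 0.06, and their mean level was lowest in the array labelled HPYD 3 (7.48) and in Model 2 (7.80), against 8.11 to 8.59 elsewhere. In Fcgr2b and Fcgr3, too, Model 2 was the lowest model array and the array labelled HPYD 3 the lowest of all. The part of any of these cell types in the receptor levels was not tested.

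The receptors signal through adaptors and the kinase Syk. Of 18 listed genes of that pathway 16 were measured, and 15 were higher on average in the model arrays (median 0.32), with 4 at an unadjusted p under 0.05 and 0 at an adjusted one (limma). Those 4 were Lcp2 (SLP-76), Vav1, a guanine nucleotide exchange factor, Fgr, a Src family kinase, and Ptpn6, the phosphatase SHP-1, and without the array labelled HPYD 3 the number was 8. Lcp2 was 7.62, 7.44 and 7.52 in the control arrays, 8.42, 8.20 and 7.70 in the model arrays, and 7.71, 8.13 and 7.33 in HPYD 1 to 3. As for Clec5a, Model 1, Model 2 and HPYD 2 were highest. Tyrobp, the adaptor of Clec5a, was 9.35, 9.42 and 9.47 in the control arrays, 10.70, 10.26 and 10.58 in the model arrays, and 10.68, 10.81 and 8.54 in HPYD 1 to 3, so that it divided the arrays as Fcer1g did. It was higher in HPYD 1 and 2 than in controls by 1.33 (limma adjusted p = 0.0373). With the array labelled HPYD 3 kept, the difference of Tyrobp was 0.59 (limma adjusted p = 0.860). Syk, named after its values were seen, differed by 0.56 between model and control groups (standard error 0.24; limma adjusted p = 0.859).

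Other members of both receptor families gave a frame for the 10 genes. Of 11 other Fc receptor genes 10 were measured, with a median difference of 0.10 between model and control groups and 0 at an unadjusted or adjusted p under 0.05 (limma). Fcrls, a homeostatic microglial gene of that family, was 8.28, 8.39 and 8.48 in the control arrays, 9.16, 7.80 and 9.30 in the model arrays, and 9.12, 9.07 and 6.65 in HPYD 1 to 3, with Model 2 below all controls. Of 22 other C-type lectin receptor genes, all measured, 14 were higher in the model group (median 0.18), 4 of them at an unadjusted p under 0.05 and 0 at an adjusted one (limma). Clec7a (Dectin-1), a β-glucan receptor induced in plaque-associated microglia, was 5.01, 5.29 and 4.94, then 6.86, 6.40 and 6.82, and 6.98, 6.58 and 4.93 in HPYD 1 to 3. Clec12a, an inhibitory receptor of granulocytes and monocytes, was 5.95, 6.32 and 5.66, then 8.36, 8.55 and 6.03, and 6.18, 7.10 and 5.60. Clec7a separated the arrays as Fcer1g did, and Clec12a was highest in Model 1, Model 2 and HPYD 2, as Clec4d, Clec4e and Clec4a2 were. The others of the 4 were Clec4a1 (0.36) and Clec1a (0.17).

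**Figure D4:**
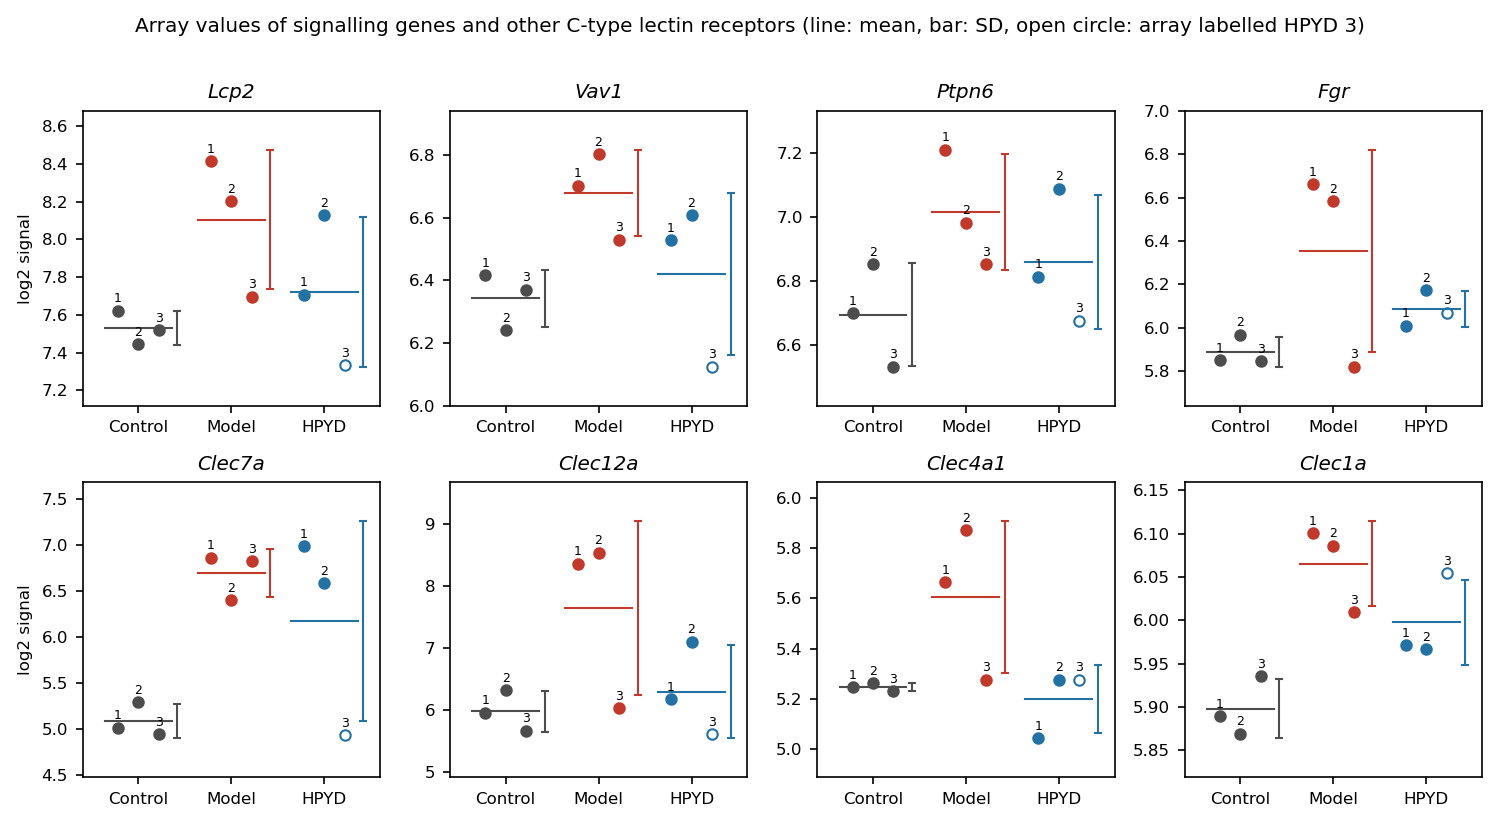
Log2 signal (vertical axes) of 4 signalling genes and 4 other C-type lectin receptor genes in each array, numbered by replicate, with the group mean (line) and SD (bar) over 3 arrays and the array labelled HPYD 3 as an open circle. Clec7a was high in all model arrays and in HPYD 1 and 2 (6.40 to 6.98), while Clec12a was highest in Model 1, Model 2 and HPYD 2 (8.36, 8.55 and 7.10).

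Genes outside the members that were nearest in pattern were sought by the mean absolute log2 difference over the 9 arrays, each gene's own mean subtracted. Candidates had a range not under 0.5 times that of the member, and other members could not be picked. For Fcer1g, among 3266 such candidates, the nearest were Cd53 (0.12), a tetraspanin of leukocytes, Laptm5 (0.13), a lysosomal protein of blood cells, and Prnp (0.13). Cd53 was 8.27 to 8.30 in the control arrays, 9.34, 9.07 and 9.04 in the model arrays, and 8.81, 9.10 and 7.57 in HPYD 1 to 3. For Clec4d, among 10398, they were Tagln2, Itgb2l and Ifi27 (0.06 each). Itgb2l was 6.93, 7.11 and 6.33 in Model 1 to 3, beside 6.25 to 6.47 in the control arrays. For Clec5a, among 6440, they were Ccl9 (0.07), a chemokine, Slfn2 (0.08) and H2bc14 (0.09). For Fcgr4, among 4895, they were H2bc3 (0.09), Smtnl2 (0.10) and Sp100 (0.11). The sets named for the 4 members shared 0 genes, and the values are descriptions over arrays that share their groups.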

How the data were processed

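Brain RNA of 9 samples in 3 groups was measured on 1-colour arrays. The sample labels gave the groups. The authors deposited log2 signals for 35556 probe sets, between 2.37 and 14.01. MAS5 is the tool named in the submitters' processing notes. How background was corrected and arrays were scaled is given by no source used here, and neither step was repeated. The paper describes RNeasy columns and labelled cDNA, the sample labels Trizol and biotinylated cRNA. Array medians were 6.69 to 6.82, and values were used unchanged.

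A single symbol was given for 21789 probe sets, several for 1621 and none for 12146. The set with the highest mean was kept per gene, which left 19938 genes. Groups were compared in R 4.3.3 with limma 3.58.1 over all 9 arrays (6 residual and 2.13 prior degrees of freedom) and adjusted after Benjamini-Hochberg over all genes, with a threshold of 0.05. The fit was tested on simulated data. The number of arrays limits the precision. Alternatives were other scalings, a filter on dim genes, another variance model, array weights, fewer arrays, a replicate block, another joining of probe sets, S100a8 as a covariate and the analysis of variance of the paper's methods. The genes, the 9 gene lists and the naming rule (all members, up to 4 genes of each list, and the nearest genes of 4 members) were chosen with earlier results of these data known.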

Additional observations from a re-analysis of the deposited data

How the results depend on the processing

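Of 582 member differences recomputed under 20 other settings, 553 kept their direction and their side of the threshold and 29 changed sign. The smallest adjusted p was 0.0757 (limma), for Fcgr4 between model and control groups without Model 3, so 0 members were called under each setting. Only 4 members (Fcgr1, Fcgr2b, Fcgr3 and Fcer1g) passed the filter on dim genes, and the other 6 lay in the dimmest 33.3% of genes, where signal over background limits the reading. The replicate numbers did not pair the arrays, as 2 of 9 pairs of the same number deviated together with a correlation over 0.1. With the replicate block, the number of members at an unadjusted p under 0.05 between HPYD and control groups was 0 in place of 1.

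For that comparison the number was also 0 with arrays shifted to one median, quantile normalization, the methods' analysis of variance, only the arrays compared, the S100a8 covariate, or Model 1, Model 2 and HPYD 2 left out. It was 3 with array weights, 5 with the covariate and the array labelled HPYD 3 left out, and 0 to 4 when each array was left out, with 4 without HPYD 3. Between HPYD and model groups it was 2, but 1 with array weights, the analysis of variance, only the arrays compared and either covariate fit. It was 0 with the filter, which had taken Fcgr4 and Clec5a, the 2 members counted, out of the test. It was 1 to 5 when each array was left out, with 5 without Model 3. Between model and control groups it was 5, but 4 with one median or the covariate, and 6 with array weights or the replicate block. It was 7 with only the arrays compared, or with the covariate and without HPYD 3. With the filter or the analysis of variance it was 2. When each array was left out it was 3 to 7 (3 without Control 1, Control 3 or Model 1, 7 without HPYD 3). Counts that involve the model group are not given with Model 1, Model 2 and HPYD 2 left out, as a single model array then remains. The share of all genes at the same threshold is given only for the fit over all arrays and the fit without HPYD 3. For the other settings, whether these counts moved more than those of other genes was not tested.

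The member median between HPYD and model groups was -0.35, -0.53 to -0.067 when each array was left out, and 0.019 with the covariate and without HPYD 3. In that last fit, differences between HPYD and model groups became 0.11 for Fcer1g, 0.060 for Fcgr1, 0.17 for Fcgr2b and 0.045 for Fcgr3. When each array was left out they were -0.66 to 0.048, -0.22 to 0.12, -0.37 to 0.17 and -0.76 to 0.082, above 0 without HPYD 3. Clec4e turned to 0.022 with the covariate. With Model 1, Model 2 and HPYD 2 left out, the HPYD group was HPYD 1 and the array labelled HPYD 3. Differences between HPYD and model groups were then 0.14 for Clec4e, 0.053 for Clec4a2 and -0.016 for Clec4n. Those between model and control groups were -0.018 for Clec4e and -0.092 for Clec4a2. Between HPYD and control groups they were -0.039 for Clec4a2, -0.046 for Clec4n and -0.25 for Fcgr3. When each array was left out, HPYD against control gave -0.039 to 0.20 for Clec4a2, -0.046 to 0.047 for Clec4n and -0.25 to 0.59 for Fcgr3, and Clec4n was -0.020 to 0.073 for HPYD against model and -0.044 to 0.0043 for model against control. Clec4n between HPYD and control groups was -0.043 with one median, -0.017 with quantile normalization and -0.00072 with the covariate.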
